A study of Homo sapiens with 12 samples.

Results

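The transcript response of HEK293 cells to TNFα in the absence of an inhibitor was described from 6 of the 12 RNA sequencing libraries of a study of the Mediator kinases. HEK293 is an established human embryonic kidney cell line, here grown in DMEM with serum. The 3 libraries of the DMSO group came from cells that received the vehicle, 0.1% DMSO, for 3 h. The 3 libraries of the TNF group came from cells that received the same vehicle for 1 h and then 10 ng/mL TNFα for 2 h, so the vehicle is common to both groups. The members are all genes that passed a filter on low counts, 14526 of 56634 gene symbols. The other 6 libraries, from cells given the CDK8 and CDK19 inhibitor Senexin B (SnxB) at 1 µM with or without TNFα (groups TNF_SnxB and SnxB), enter only where named.

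TNFα is an inflammatory cytokine that binds TNF receptor 1 at the cell surface. The receptor recruits adaptor proteins, kinases and ubiquitin ligases that activate the IKK complex, which marks the inhibitor IκBα for destruction and so releases NF-kB dimers into the nucleus. The same receptor complex also activates the JNK and p38 kinases, which act on AP-1 factors. In epithelial cells the early NF-kB targets are best known for chemokines, for inhibitors that shut the pathway off again, and for survival genes, while the transcripts that fall are less often described.

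Library totals were 9150380 to 11714431 counts in 5 of the 6 libraries and 50943310 in TNF library 2, which is 4.43-fold the median over the rest. The detection floor, set at 3 counts, lies at 0.0589 CPM in TNF library 2 and at 0.256 to 0.328 CPM in the others. CPM is the count scaled to the effective library total, except that the floors and the marker levels in this paragraph use the raw total. Such floors cover counting error only. Replicates of a group were close, since counts of 2 DMSO libraries gave a chi-square over its degrees of freedom between 1.2995 and 1.55 and those of 2 TNF libraries between 1.06 and 1.15, and the biological coefficient of variation was 1.74%. The labels call the replicates biological but do not say how the cultures were separated, so p-values measure the spread between these samples. Of the line's markers 5 were tested, VIM, KRT8, KRT18 and NEFL among them, while PAX2 and NEFM were at 0.427 to 1.31 CPM and did not pass the filter. The 7 line markers summed to 825 to 846 CPM in DMSO and 861 to 870 CPM in TNF, and VIM, called higher by 0.09 on the log2 scale, had an adjusted p of 0.0627 without DMSO library 1, 0.0540 without TNF library 1, and 0.0950 without TNF library 2. Markers of leukocytes summed to 1.003 to 1.201 CPM against 1.12 to 1.42 CPM, with none of 12 tested and CD3E, MS4A1, FCGR3A and TYROBP at 0 counts. Endothelial markers summed to 2.23 to 2.91 against 2.63 to 3.28 CPM, with CDH5 and EMCN at 0, and fibroblast markers to 16.2 to 17.4 against 15.0 to 16.5 CPM, with DCN at 0.

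The promoter windows of 12 genes whose changes carry the description below are shown first, so that the genes can be compared by sequence as well as by level. Each run is the 120 bases before the gene start in RefSeq (GRCh38.p14), written 5′ to 3′ on the strand of the gene. Capitals mark every match to the NF-kB binding motif (the kB consensus, searched on both strands, so that capitals can cover overlapping matches). NFKBIA and CXCL1 are well-known targets, the next 6 rose by smaller amounts or are less often described and hold a match, C10orf10 and MSX1 rose and hold none in these bases, and RGS2 and KIT fell. The 12 were chosen and do not stand for all genes. Of genes not printed, CXCL10, CXCL8, TNF, JUNB and BIRC3 rose and hold no match in these bases, and CTGF fell and holds 1.
NFKBIA: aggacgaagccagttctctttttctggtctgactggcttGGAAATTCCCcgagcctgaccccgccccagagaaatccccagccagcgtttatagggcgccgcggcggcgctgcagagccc
CXCL1: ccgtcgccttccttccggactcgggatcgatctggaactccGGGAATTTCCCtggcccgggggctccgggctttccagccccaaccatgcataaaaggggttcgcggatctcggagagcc
TNFRSF9: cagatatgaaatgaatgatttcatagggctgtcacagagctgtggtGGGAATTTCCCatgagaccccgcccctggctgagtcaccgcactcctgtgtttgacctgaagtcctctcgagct
IRF1: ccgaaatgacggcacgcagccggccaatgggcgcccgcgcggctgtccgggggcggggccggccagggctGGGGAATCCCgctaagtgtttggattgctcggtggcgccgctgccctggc
REL: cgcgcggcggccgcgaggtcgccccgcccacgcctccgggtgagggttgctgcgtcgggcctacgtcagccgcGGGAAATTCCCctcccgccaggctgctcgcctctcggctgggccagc
TRAF3: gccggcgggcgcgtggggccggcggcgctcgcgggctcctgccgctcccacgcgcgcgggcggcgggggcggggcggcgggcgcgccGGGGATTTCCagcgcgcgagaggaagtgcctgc
TAPBP: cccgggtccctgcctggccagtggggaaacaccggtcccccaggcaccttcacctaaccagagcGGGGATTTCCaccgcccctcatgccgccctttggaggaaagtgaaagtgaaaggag
DDX58: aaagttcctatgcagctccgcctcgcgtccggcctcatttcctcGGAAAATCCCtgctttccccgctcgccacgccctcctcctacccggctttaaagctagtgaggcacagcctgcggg
C10orf10: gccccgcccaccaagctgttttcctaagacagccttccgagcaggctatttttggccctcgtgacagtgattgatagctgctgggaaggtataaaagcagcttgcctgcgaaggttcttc
MSX1: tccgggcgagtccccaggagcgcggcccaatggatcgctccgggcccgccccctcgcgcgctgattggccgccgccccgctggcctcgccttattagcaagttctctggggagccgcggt
RGS2: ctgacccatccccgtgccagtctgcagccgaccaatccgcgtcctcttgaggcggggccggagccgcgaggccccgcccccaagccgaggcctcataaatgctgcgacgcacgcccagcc
KIT: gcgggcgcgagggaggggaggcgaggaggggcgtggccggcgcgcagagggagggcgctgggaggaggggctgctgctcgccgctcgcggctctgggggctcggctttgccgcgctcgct

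The windows lie at chr14:35404750-35404869 (minus strand) for NFKBIA, chr4:73869273-73869392 (plus strand) for CXCL1, chr1:7940840-7940959 (minus strand) for TNFRSF9, chr5:132490774-132490893 (minus strand) for IRF1, chr2:60881454-60881573 (plus strand) for REL, chr14:102777329-102777448 (plus strand) for TRAF3. Those of the other 6 genes lie at chr6:33314079-33314198 (minus strand) for TAPBP, chr9:32526197-32526316 (minus strand) for DDX58, chr10:44978810-44978929 (minus strand) for C10orf10, chr4:4859545-4859664 (plus strand) for MSX1, chr1:192808919-192809038 (plus strand) for RGS2, chr4:54657837-54657956 (plus strand) for KIT. The kB match of CXCL1 starts 79 bases before the gene start, that of NFKBIA 81, that of TNFRSF9 74, that of IRF1 50 and that of REL 47. TNFRSF9 also holds a match to the AP-1 letters TGANTCA, left in lower case. A match describes the letters only and is not a measured binding site, and no match says only that the letters are not in these bases. Over the table's full windows, from 250 bases before to 50 after the start, 7612 of the 14526 tested genes (52.4%) had an entry, too few to compare sets, so the following shares describe those windows only. The kB consensus was in 6.60% of the windows of tested genes (5.91% of all 35116 windows in the table), in 36 of 99 of the genes called higher under all alternatives, and in 1 of 31 of those called lower under all. The AP-1 letters, searched on both strands, were in 3.84% of windows of tested genes and in 9 of the same 99 and 1 of the same 31.

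After 2 h of TNFα, 473 genes were higher and 303 lower than in DMSO, which is 3.26% and 2.09% of the 14526 tested (edgeR quasi-likelihood test, two-sided, Benjamini-Hochberg adjusted p under 0.05, here a call). Large rises were few: 45 called genes rose at least 2-fold and 7 fell at least 2-fold, while 296 of the calls higher and 242 of the calls lower were within 0.3219 of 0 on the log2 scale. The median log2 fold change was 0.24 over the genes called higher, -0.20 over those called lower and -0.0013 over all tested genes. The 3 TNF libraries lay wholly above the 3 DMSO libraries for 445 of the 473 genes called higher (10.6% over all tested genes) and wholly below them for 281 of the 303 called lower (9.79%). The calls come from these same libraries, so the counts only describe them. Groups without overlap were also a condition of the rule that named the largest rises and falls, so for those genes the separation adds nothing. How small a change could be called depended on level, with the smallest called rise at 0.35 on the log2 scale for genes at 1 to 10 CPM, 0.12 at 10 to 100 CPM and 0.07 above 100 CPM. In bulk RNA a lower level in every cell and the loss of some cells cannot be told apart. Each count of called list members below is to be read beside 3.26% higher and 2.09% lower over all tested genes. Statements that groups did not overlap are to be read beside 10.6% and 9.79%.

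Most of the called genes lay outside the best-known targets. The 4 lists of well-known TNF and NF-kB genes had 93 tested members, of which 49 rose and 0 fell (edgeR, 1 lower at an unadjusted p under 0.05, and 44 higher and 0 lower by DESeq2). That leaves 424 genes called higher that belong to none of these lists, 16 of them at least 2-fold. Under all 15 alternative settings (other scaling, tool, filter, sets of libraries or a sequence correction) 179 genes were called higher, 42 of them in the 4 lists and 137 outside, and 61 lower. Of these, 37 of the 179 rose and 1 of the 61 fell at least 2-fold, and a test against a fold of at least 1.5 called 41 genes higher, 30 of them in the 4 lists.

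**Figure D1:**
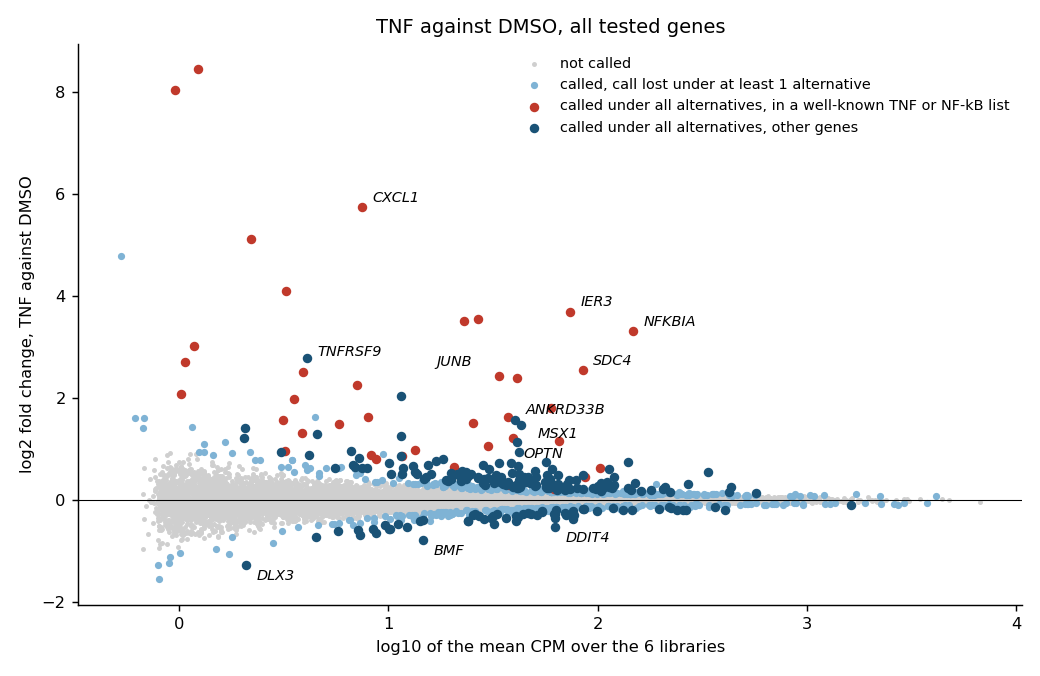
Log2 fold change of TNF against DMSO (y axis) against the log10 of the mean CPM over the 6 libraries (x axis) for all 14526 tested genes, with grey for genes not called, light blue for calls lost under at least 1 alternative, red for well-known targets and dark blue for other genes called under all alternatives. The largest rises are red, whereas the 137 rises and 61 falls in dark blue lie mostly within 1 log2 unit of 0.

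Genes for the NF-kB subunits and their inhibitors rose together, 10 of 12 tested members (median log2 fold change 0.83 over the 12, against -0.0013 over all genes). NFKBIA, which encodes the inhibitor IκBα, was at 24.9, 27.5 and 28.7 CPM in the DMSO libraries and 269.8, 269 and 267 CPM in the TNF libraries, and rose by 3.31 on the log2 scale (SE 0.0428, adjusted p = 1.40e-67). RELB, a subunit of the non-canonical pathway, was at 3.61, 5.62 and 3.58 CPM in the DMSO libraries and 48.1, 48.8 and 51.1 CPM in the TNF libraries, and rose by 3.55 on the log2 scale (SE 0.0920, adjusted p = 1.19e-46). For both genes every TNF library stood far above every DMSO library. NFKB2 and NFKB1, which encode the precursors of the DNA-binding partners, rose by 1.81 (SE 0.0505, adjusted p = 1.21e-44) and by 1.14 (SE 0.0461, adjusted p = 3.03e-34) on the log2 scale. REL, the c-Rel subunit, was at 15.7, 15.2 and 16.6 CPM in the DMSO libraries and 27.2, 24.4 and 24.5 CPM in the TNF libraries, with no overlap, while RELA, the most studied subunit, changed least of the called members, from 80.1 ± 3.82 to 87.3 ± 0.569 CPM. Its adjusted p was 0.133 without DMSO library 1, 0.273 without DMSO library 3, 0.0915 without TNF library 1, 0.182 without TNF library 2, and 0.130 without TNF library 3. The inhibitors NFKBIE and NFKBIB and the atypical members NFKBIZ and BCL3 rose by 0.86, 0.29, 0.80 and 1.57 on the log2 scale. NFKBID and NFKBIL1 were not called, with log2 fold changes of -0.07 and 0.09.

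Between the receptor and IKK, the genes that rose encode regulators rather than the receptor or the IKK subunits: 10 of 34 tested members rose (median 0.07). TNFAIP3, the ubiquitin-editing enzyme A20, was at 3.10, 3.81 and 4.10 CPM in the DMSO libraries and 44.0, 41.5 and 41.0 CPM in the TNF libraries. BIRC3, the ubiquitin ligase cIAP2, was at 1.98, 2.11 and 3.16 CPM in the DMSO libraries and 12.2, 11.2 and 12.2 CPM in the TNF libraries, and rose by 2.24 on the log2 scale (SE 0.144, adjusted p = 3.34e-22). Both were several times higher in every TNF library than in any DMSO library. TIFA, an adaptor of the TRAF6 arm, was at 25.5, 22.4 and 23.6 CPM in the DMSO libraries and 54.4, 55.6 and 55.8 CPM in the TNF libraries, and rose by 1.21 on the log2 scale (SE 0.0568, adjusted p = 4.51e-30). TRAF3, which holds the non-canonical kinase NIK in check, was already well expressed, from 81.0 ± 1.501 to 125 ± 2.86 CPM, and rose by 0.62 on the log2 scale (SE 0.0374, adjusted p = 1.72e-23). MAP3K8, the kinase TPL2, rose by 1.62 on the log2 scale, IRAK2 by 0.88, TNIP1, a partner of A20, by 0.44, and CYLD, a deubiquitinase, by 0.28. TRAF2 and TRAF4 rose by 0.20 and 0.19, with an adjusted p of 0.229 for TRAF2 without DMSO library 3, and 0.0562 for TRAF2 and 0.0614 for TRAF4 without TNF library 2. Of the core, TNFRSF1A, the receptor itself (0.02), RIPK1 (0.02), TRADD (0.06), MAP3K7 (-0.04), CHUK (0.02), IKBKB (0.06) and IKBKG (0.09) were not called.

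Chemokines and cytokines had the steepest rises, mostly from levels near the floor, with 11 of 17 tested members higher and a list median of 2.51 on the log2 scale, the same to 2 decimals with CXCL10 and CCL20 at their bounds. The neutrophil chemokine CXCL1 was at 0.516, 0.1003 and 0.171 CPM in the DMSO libraries and 15.0, 14.8 and 14.5 CPM in the TNF libraries. CXCL10 had 0 counts in DMSO and 178 over the TNF libraries, at least 27.6-fold higher if DMSO held the floor of 3 counts in total, and CCL20 had 0 and 135, at least 21.0-fold higher. The TNF gene itself went from 1 count over the DMSO libraries to 73 over the TNF libraries, a ratio of 34.0 (95% exact binomial interval 5.91 to 1361, counting error only). These are small absolute levels, since TNF mRNA stayed at 0.878, 1.004 and 1.22 CPM and CXCL10 at 2.63, 2.52 and 2.27 CPM after treatment. CCL2, which attracts monocytes, and CSF1, the macrophage growth factor, rose by 2.51 and 0.98 on the log2 scale, and the cytokine IL32 by 0.96. CXCL1, CXCL2 and CXCL3 are close in sequence, so reads can be shared between them. LIF (0.16), IL15 (-0.39), IL12A (0.01), TSLP (0.02), TNFSF9 (0.03) and CXCL16 (0.04) were not called.

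Of the other 30 tested well-known targets, 18 rose (median 0.48), with IER3, an early response gene, highest at 140.4, 134 and 137 CPM after 11.95, 8.53 and 10.8 CPM. CD83, an immune surface protein, rose by 2.397 on the log2 scale (SE 0.0638, adjusted p = 5.92e-46), PTX3, a soluble pattern recognition protein, by 1.98, PTGES, a prostaglandin synthase, by 1.30, and GADD45B, a stress sensor, by 1.05. PLAU, the urokinase protease, went from 0.430, 0.301 and 0.512 CPM to 1.21, 1.93 and 1.75 CPM. SOD2, the mitochondrial superoxide dismutase, was at 117 ± 5.98 CPM in DMSO and 117 ± 4.05 CPM in TNF, and TNFAIP8 (-0.14), ZFP36 (0.41), CEBPD (0.47) and TNFAIP2 (0.66) were not called.

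**Figure D2:**
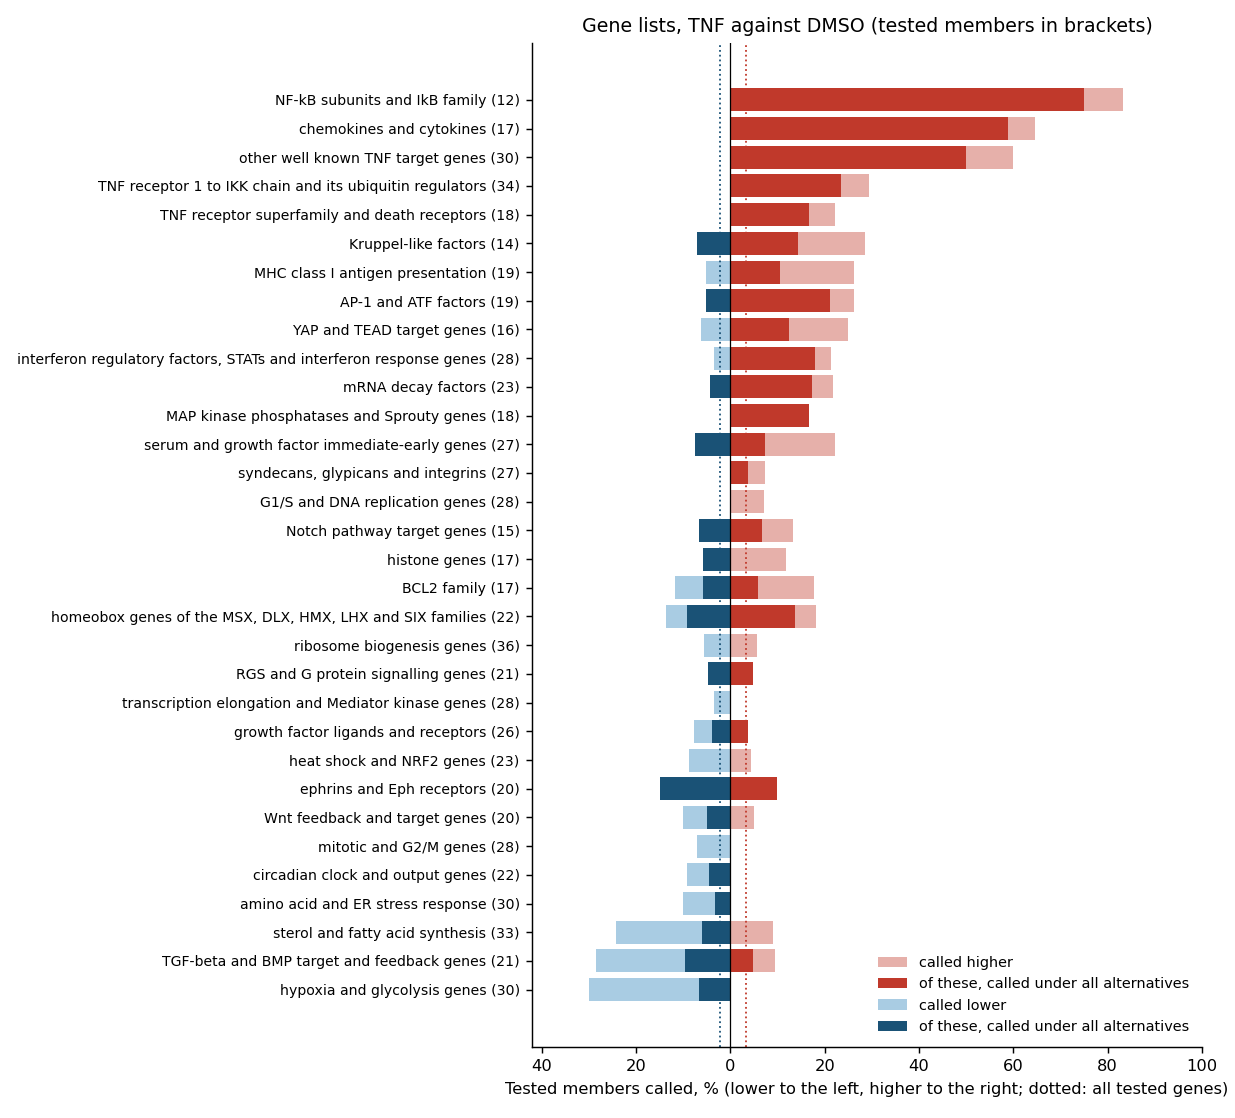
Share of the tested members of each gene list shown called higher (right) or lower (left) in TNF, in percent, with the part called under all alternatives in the darker shade, the number of tested members in brackets and dotted lines at 3.26% and 2.09%, the shares over all tested genes. NF-kB subunits and inhibitors are at the top with 10 of 12 higher, and the hypoxia and glycolysis list is at the bottom with 9 of 30 lower.

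Beyond these lists, a few surface receptors of each family were called, beside 3.26% higher and 2.09% lower over all tested genes. Of 18 tested genes of the TNF receptor superfamily and death receptors 4 rose (median 0.07, edgeR). TNFRSF9, the costimulatory receptor CD137, was at 0.946, 1.505 and 0.768 CPM in the DMSO libraries and 6.04, 7.36 and 7.85 CPM in the TNF libraries, and rose by 2.78 on the log2 scale (SE 0.198, adjusted p = 1.05e-19). TNFRSF12A, the receptor of the ligand TWEAK, was at 28.1, 25.6 and 27.6 CPM in the DMSO libraries and 40.1, 35.4 and 38.8 CPM in the TNF libraries, and rose by 0.44 on the log2 scale (SE 0.0612, adjusted p = 5.55e-08). The death receptors TNFRSF10B (DR5) and FAS rose by 0.32 and 0.33 on the log2 scale, and FAS lost the call by DESeq2 and without DMSO library 1 (adjusted p = 0.0920). All 4 genes had every TNF library above every DMSO library. TNFRSF1A, CASP8 (0.02) and FADD (0.17), which carry the death signal, and CFLAR (0.06), which encodes an inhibitor of it, were not called.

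The ephrin system, in which ligands and Eph receptors on neighbouring cells guide contact and repulsion, moved in both directions, with 2 of 20 tested members higher and 3 lower. EFNA1, a ligand that is also in the well-known lists, was at 16.4, 19.2 and 19.7 CPM in the DMSO libraries and 57.0, 56.6 and 56.2 CPM in the TNF libraries, and rose by 1.62 on the log2 scale (SE 0.0610, adjusted p = 5.39e-36). EPHA2, a receptor that binds it, rose by 0.44 on the log2 scale (SE 0.0510, adjusted p = 2.04e-10), from 39.2 ± 2.17 to 53.4 ± 1.03 CPM. EPHA4, another receptor, was at 26.4, 28.7 and 27.7 CPM in the DMSO libraries and 19.4, 20.7 and 21.8 CPM in the TNF libraries, and fell by 0.41 on the log2 scale (SE 0.0665, adjusted p = 3.45e-06). EPHA7 and the ligand EFNB2 fell by 0.23 and 0.19 on the log2 scale. None of the 5 genes had overlapping groups, and all 5 were called under every alternative. The list median was 0.01 on the log2 scale, against -0.0013 over all genes. Of 27 tested syndecans, glypicans and integrins 2 were called higher, or 1 by DESeq2. SDC4, a heparan sulfate proteoglycan also in the well-known lists, was at 25.3, 24.4 and 24.1 CPM in the DMSO libraries and 149, 143 and 143 CPM in the TNF libraries. SDC1 (0.00), SDC2 (-0.05) and SDC3 (0.03) were not called. The integrin gene ITGA5 rose by 0.18 on the log2 scale, but its groups overlapped. It lost the call by DESeq2 (adjusted p = 0.223) and after the GC correction described below (adjusted p = 0.0919). Chosen after their values were seen, the cytokine receptor subunits IL6ST (gp130), IL27RA and IFNGR2 rose by 0.45, 0.42 and 0.22 on the log2 scale, IL6ST from 100.6, 99.3 and 105 CPM to 138, 141 and 136 CPM.

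The largest rises outside the well-known lists include genes with little connection in textbooks to inflammation. C10orf10, also named DEPP1, was at 4.90, 3.71 and 5.03 CPM in the DMSO libraries and 18.003, 19.2 and 18.3 CPM in the TNF libraries, and rose by 2.03 on the log2 scale (SE 0.108, adjusted p = 8.25e-27). ANKRD33B, an ankyrin repeat gene, was at 20.7, 18.3 and 22.3 CPM in the DMSO libraries and 61.3, 61.1 and 58.8 CPM in the TNF libraries, and rose by 1.56 on the log2 scale (SE 0.0589, adjusted p = 5.51e-36). In both, the lowest TNF library was above the highest DMSO library, which the naming rule required. SLC16A9 and SLC16A6, members of the monocarboxylate transporter family, rose by 0.94 (SE 0.0560, adjusted p = 8.97e-24) and by 1.29 (SE 0.154, adjusted p = 6.27e-10) on the log2 scale. SLC16A9 was at 27.7, 30.0 and 30.6 CPM in the DMSO libraries and 50.7, 58.3 and 55.2 CPM in the TNF libraries. USP43, a ubiquitin protease, was at 6.28, 7.52 and 6.40 CPM in the DMSO libraries and 17.6, 15.6 and 15.6 CPM in the TNF libraries, and CALCB, a neuropeptide of the calcitonin family, at 4.99, 3.81 and 4.61 CPM in the DMSO libraries and 9.66, 8.83 and 7.85 CPM in the TNF libraries. These 4 genes also had no overlap between the groups, again required by the naming rule, and were called under all alternatives. SLC16A6 overlaps ARSG on the other strand (0.15 on the log2 scale, not called), and the strand setting of the counting is not given in the sources used here.

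Other members of this group sat near the floor, and their calls were less stable. GREM1, a BMP antagonist, was at 0.602, 0.602 and 0.768 CPM in the DMSO libraries and 1.54, 1.89 and 1.57 CPM in the TNF libraries, BDKRB2, a bradykinin receptor, at 0.602, 0.803 and 1.11 CPM in the DMSO libraries and 1.43, 1.77 and 2.18 CPM in the TNF libraries, and KCNV1, a potassium channel subunit, at 0.774, 1.71 and 0.683 CPM in the DMSO libraries and 2.63, 2.24 and 1.92 CPM in the TNF libraries. APLF, a DNA repair factor, rose by 0.93 on the log2 scale (SE 0.219, adjusted p = 0.00266), and MAFF, a small Maf protein, by 0.89 (adjusted p = 0.0308). Each of these genes, for which the naming rule required groups without overlap, lost the call by DESeq2 and without at least 1 library. The adjusted p was 0.128 for BDKRB2, 0.0628 for KCNV1 and 0.218 for MAFF without DMSO library 1, 0.0549 for MAFF without DMSO library 2, 0.0742 for KCNV1 and 0.0536 for MAFF without DMSO library 3, 0.0834 for GREM1, 0.0740 for BDKRB2, 0.105 for APLF and 0.190 for MAFF without TNF library 2, and 0.0790 for MAFF without TNF library 3. The clone-named transcripts RP11-500C11.3, AC245100.1 and AP001258.4 rose by 1.403, 1.21 and 0.93 on the log2 scale and were called under all alternatives.

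**Figure D3:**
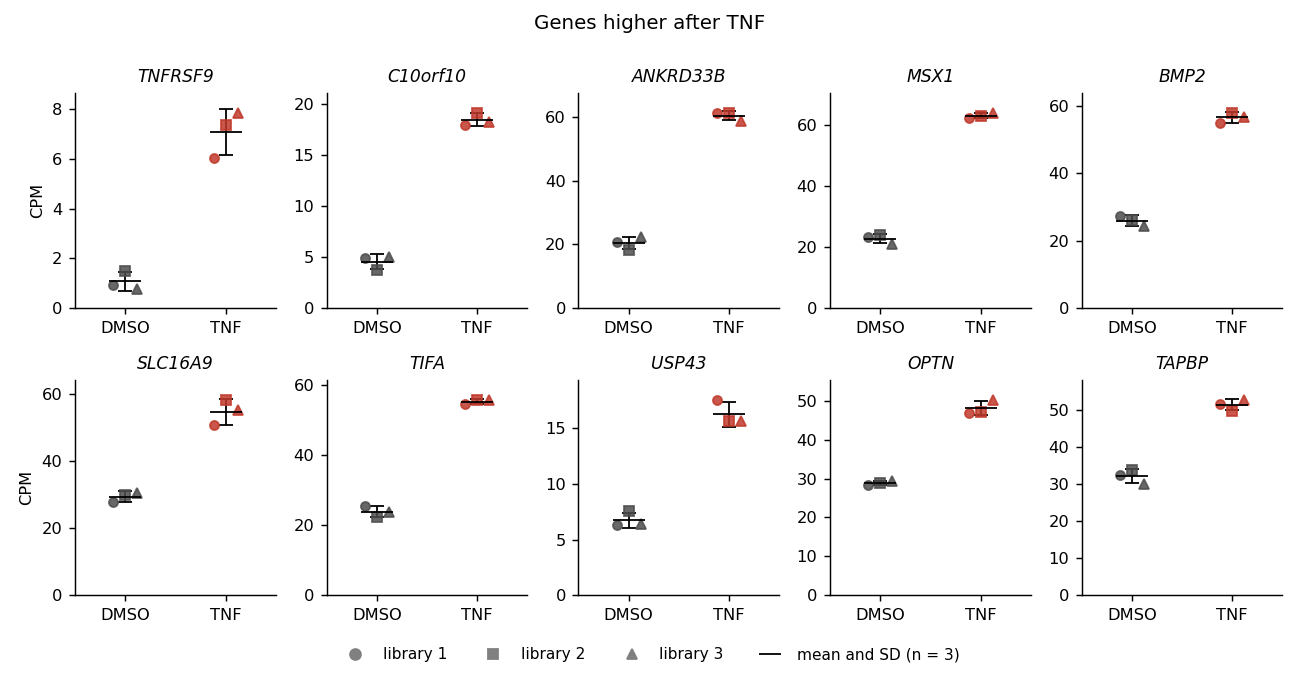
CPM (y axis, from 0) of 10 genes that rose, by group (x axis), with 1 point per library (circle, square and triangle for libraries 1, 2 and 3) and bars for the mean and SD of 3 libraries. In each panel the 3 TNF points lie above the 3 DMSO points, a condition for naming some of these genes. The square of the deepest library, TNF library 2, lies among or close to the other TNF points.

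Among the falls outside these lists, 11 of the 20 largest by the naming rule were called under all alternatives. BMF, a pro-apoptotic BH3-only protein, was at 16.4, 18.7 and 19.97 CPM in the DMSO libraries and 10.2, 10.3 and 12.1 CPM in the TNF libraries, and fell by 0.78 on the log2 scale (SE 0.0871, adjusted p = 4.89e-11). DLX3, a homeobox factor, was at 3.27, 2.61 and 2.82 CPM in the DMSO libraries and 1.98, 1.14 and 0.785 CPM in the TNF libraries, and fell by 1.28 on the log2 scale (SE 0.229, adjusted p = 3.12e-05). Both had every TNF library below every DMSO library, which the naming rule required, and DLX3 rests on levels close to 1 CPM. PPARGC1A, the coactivator of mitochondrial biogenesis, was at 7.31, 8.33 and 6.23 CPM in the DMSO libraries and 3.62, 5.12 and 4.01 CPM in the TNF libraries. ADAMTS15, a secreted metalloprotease, and PGF, an angiogenic ligand, fell by 0.58 and 0.58 on the log2 scale, and JADE2, a chromatin factor, by 0.57. DDIT4, an inhibitor of mTORC1 also named REDD1, was at 81.8, 69.5 and 71.2 CPM in the DMSO libraries and 50.9, 51.4 and 51.1 CPM in the TNF libraries, and fell by 0.54 on the log2 scale (SE 0.0463, adjusted p = 1.27e-15). It was the most abundant gene of these 20. WNT16, a Wnt ligand, fell by 0.61 on the log2 scale (SE 0.175, adjusted p = 0.0207), and GAB3, an adaptor, by 1.56 from 0.946, 1.003 and 1.88 CPM. Both lost the call by DESeq2 and without some libraries, with an adjusted p of 0.130 for WNT16 without DMSO library 1, 0.0875 for WNT16 and 0.153 for GAB3 without DMSO library 3, 0.0698 for WNT16 without TNF library 2, and 0.0812 for WNT16 without TNF library 3.

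**Figure D4:**
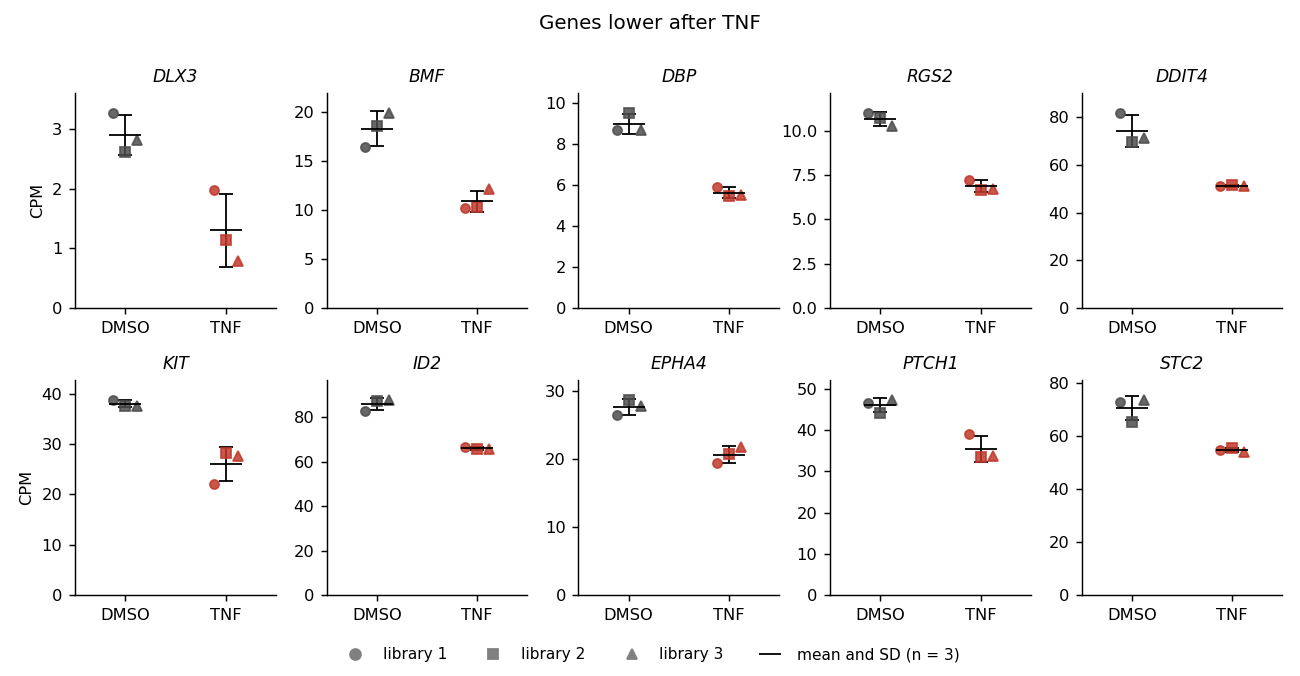
CPM (y axis, from 0) of 10 genes that fell, by group (x axis), with 1 point per library (circle, square and triangle for libraries 1, 2 and 3) and bars for the mean and SD of 3 libraries. The 3 TNF points lie below the 3 DMSO points in each panel, a condition for naming some of these genes. The smallest gap in CPM is in DLX3, where the highest TNF library was at 1.98 and the lowest DMSO library at 2.61 CPM. Relative to the level of the gene, the gap is smaller in PTCH1, at 38.97 and 44.24 CPM.

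AP-1 and ATF factors, which receive the kinase arm of the response, rose in 5 of 19 tested members and fell in 1. JUNB was at 10.1, 11.2 and 10.49 CPM in the DMSO libraries and 57.2, 56.9 and 56.8 CPM in the TNF libraries, and rose by 2.42 on the log2 scale (SE 0.0683, adjusted p = 1.85e-44). JUN, the founding member, went from 277, 284 and 260.2 CPM to 414, 388 and 393 CPM, and JUND and ATF3 rose by 0.60 and 0.60 on the log2 scale. No TNF library overlapped a DMSO library in any of the 4. MAF, a large Maf factor, went the other way, at 8.599, 8.43 and 9.13 CPM in the DMSO libraries and 5.93, 6.06 and 4.71 CPM in the TNF libraries, and fell by 0.59 on the log2 scale (SE 0.118, adjusted p = 2.42e-04). Of the FOS partners, FOS was at a log2 fold change of -0.47, FOSB at 0.74 and FOSL1 at 0.30, none of them called. JUNB overlaps HOOK2 on the other strand, which was at 11.4 CPM in TNF and not called (log2 fold change 0.05).

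Serum and growth factor immediate-early genes were split, with 6 of 27 tested members higher and 2 lower (median 0.07), or 3 and 2 by DESeq2. PPP1R15A, also named GADD34, a phosphatase subunit that restores translation after stress, was at 44.6, 41.2 and 42.1 CPM in the DMSO libraries and 70.0, 72.2 and 69.8 CPM in the TNF libraries, and rose by 0.74 on the log2 scale (SE 0.0470, adjusted p = 2.80e-22). PIM3, a survival kinase, went from 193, 196 and 182 CPM to 234, 221 and 233 CPM. CITED2, a transcriptional regulator that limits hypoxia signalling, was at 40.3, 39.6 and 42.5 CPM in the DMSO libraries and 34.0, 31.9 and 30.5 CPM in the TNF libraries, and fell by 0.36 on the log2 scale (SE 0.0556, adjusted p = 1.58e-06). Groups did not overlap in any of these 3 genes. The classical members EGR1 (0.20), NR4A1 (0.27), ARC (0.07), SRF (0.07) and MYC (-0.02) were not called. Of 14 tested Kruppel-like factors 4 were called higher and 1 lower, or 2 and 1 by DESeq2. KLF10, a TGF-beta inducible repressor, and KLF9 rose by 0.48 and 0.26, and KLF15, a metabolic regulator, was at 10.3, 12.2 and 11.9 CPM in the DMSO libraries and 8.45, 8.38 and 6.81 CPM in the TNF libraries, and fell by 0.50 on the log2 scale (SE 0.103, adjusted p = 4.52e-04).

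Developmental transcription factors moved in both directions, with MSX1 the steepest rise and DLX3 the steepest fall. Of 22 tested homeobox genes of the MSX, DLX, HMX and LHX families and relatives of SIX4, 4 rose and 3 fell. MSX1, a target and partner of BMP signalling, was at 23.4, 24.0 and 21.2 CPM in the DMSO libraries and 62.5, 63.0 and 64.1 CPM in the TNF libraries, and rose by 1.47 on the log2 scale (SE 0.0561, adjusted p = 1.04e-35). Its paralog MSX2 had a log2 fold change of -0.12 and was not called. SIX5 was at 13.5, 14.7 and 12.1 CPM in the DMSO libraries and 22.3, 23.3 and 23.5 CPM in the TNF libraries, and rose by 0.79 on the log2 scale (SE 0.0786, adjusted p = 5.75e-13), and SIX4 rose by 0.35. LHX4 was at 16.4, 15.5 and 17.0 CPM in the DMSO libraries and 12.3, 12.3 and 12.04 CPM in the TNF libraries, and fell by 0.42 on the log2 scale (SE 0.0838, adjusted p = 2.71e-04), although it overlaps ACBD6 on the other strand. In MSX1, SIX5, SIX4 and LHX4 the groups were apart in all libraries. HOX genes, a class looked at after values were seen, had 38 tested members with 5 called lower (median -0.09 on the log2 scale), and 6 lower after the GC correction described below. HOXA5, HOXA9 and HOXB6 lost the call by DESeq2 (adjusted p = 0.109, 0.0835 and 0.403), and the groups of HOXB6 overlapped. HOXA13 and HOXA11 were called under all alternatives. HOXA13 went from 78.3, 76.9 and 80.4 CPM to 61.6, 64.6 and 63.4 CPM, and HOXA11 from 51.5, 48.9 and 44.6 CPM to 38.0, 40.3 and 39.7 CPM. ISL1, a LIM homeobox factor, and NR2F1 (COUP-TF1), also chosen after their values were seen, fell by 0.48 and 0.34.

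Several further transcriptional regulators, chosen after their values were seen, were called under all alternatives. NFATC1, a calcium-regulated factor, was at 25.02, 23.9 and 17.6 CPM in the DMSO libraries and 34.2, 36.7 and 32.2 CPM in the TNF libraries, and rose by 0.68 on the log2 scale. ETS1, TFE3 (a lysosomal factor) and HIVEP2 (a zinc finger protein that binds kB-like sites) rose by 0.50, 0.50 and 0.47. Among chromatin regulators, KMT2A, a histone methyltransferase, rose by 0.29, CHD4, a remodelling ATPase, by 0.24, and the corepressor BCOR by 0.20. Others fell under all alternatives, JADE2 among the genes named by rule, with log2 fold changes of -0.57 for JADE2, a PHD finger protein, -0.21 for KAT6B, a histone acetyltransferase, and -0.21 for ZMYND8, a chromatin reader. CHD4 shows how narrow the groups were, at 402, 398 and 396 CPM in the DMSO libraries and 478, 469.9 and 465 CPM in the TNF libraries. The Mediator kinase genes CDK8 (-0.03) and CDK19 (0.07), targets of the inhibitor used elsewhere in the study, were not called.

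Genes that limit signalling and mRNA life rose in part, beside 3.26% higher and 2.09% lower over all tested genes. Of 23 tested mRNA decay factors 5 rose and 1 fell. ZC3H12C, a Regnase family RNase gene, was at 18.2, 18.6 and 17.7 CPM in the DMSO libraries and 27.1, 27.2 and 26.4 CPM in the TNF libraries, and rose by 0.57 on the log2 scale (SE 0.0692, adjusted p = 8.31e-10). The AU-rich element binding proteins ZFP36L1 and ZFP36L2 rose by 0.35 and 0.20 on the log2 scale, and BTG2, which recruits deadenylases, by 0.38. TOB1, a relative of BTG2, was at 45.8, 45.2 and 44.9 CPM in the DMSO libraries and 36.2, 36.4 and 35.9 CPM in the TNF libraries, and fell by 0.32 on the log2 scale (SE 0.0520, adjusted p = 3.44e-06). TOB1 and BTG2 belong to the same family, and their TNF libraries lay on opposite sides of DMSO. Of 18 tested MAP kinase phosphatases and Sprouty genes 3 rose, the phosphatases DUSP8, DUSP16 and DUSP1. DUSP8 was at 8.26, 8.23 and 7.51 CPM in the DMSO libraries and 16.7, 13.7 and 14.7 CPM in the TNF libraries, and rose by 0.85 on the log2 scale (SE 0.101, adjusted p = 4.55e-10). DUSP16 rose by 0.48 on the log2 scale (SE 0.0472, adjusted p = 5.75e-13) and DUSP1 rose by 0.32. The ERK phosphatases DUSP4 (-0.11) and DUSP7 (-0.05) were not called. Of 21 tested RGS and G protein signalling genes, RGS16 rose, from 29.1 ± 0.845 to 39.7 ± 0.972 CPM, and RGS2, which also quenches Gq signals, was at 11.01, 10.7 and 10.2 CPM in the DMSO libraries and 7.25, 6.67 and 6.72 CPM in the TNF libraries and fell by 0.65 on the log2 scale (SE 0.106, adjusted p = 3.82e-06).

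Cell death genes did not share a direction. Of 17 tested BCL2 family genes 3 rose and 2 fell. BBC3, the BH3-only protein PUMA, was at 18.6, 19.3 and 19.6 CPM in the DMSO libraries and 26.7, 27.7 and 29.2 CPM in the TNF libraries, and rose by 0.54 on the log2 scale (SE 0.0684, adjusted p = 3.66e-09), opposite to the fall of BMF. PMAIP1, the BH3-only protein NOXA, and the survival gene MCL1 rose by 0.14 and 0.11, and BCL2L11, which encodes BIM, fell by 0.19. PMAIP1 lost its call in the fit of all 12 libraries, and the adjusted p was 0.0959 for BCL2L11 without DMSO library 3, 0.0597 for BCL2L11 without TNF library 1, and 0.0698 for MCL1 and 0.0848 for BCL2L11 without TNF library 2. BCL2 (0.09), BCL2L1 (-0.04), BAX (0.02) and BAK1 (-0.01) were not called. OPTN and SQSTM1, autophagy receptors that bind ubiquitin, and DRAM1, a lysosomal regulator, were chosen after their values were seen. OPTN was at 28.4, 28.9 and 29.4 CPM in the DMSO libraries and 47.0, 47.2 and 50.3 CPM in the TNF libraries, and rose by 0.73 on the log2 scale (SE 0.0557, adjusted p = 4.65e-18). SQSTM1 and DRAM1 rose by 0.34 and 0.81 on the log2 scale.

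Interferon and antigen presentation genes rose in single members. Of 28 tested interferon regulatory factors, STATs and response genes 6 rose and 1 fell (median 0.02). IRF1 was at 14.6, 12.2 and 12.5 CPM in the DMSO libraries and 37.0, 36.9 and 39.97 CPM in the TNF libraries, and rose by 1.51 on the log2 scale (SE 0.0723, adjusted p = 1.56e-29), and IRF2 rose by 0.50 on the log2 scale (SE 0.1005, adjusted p = 2.80e-04). DDX58, the RNA sensor RIG-I, was at 9.46, 9.73 and 9.04 CPM in the DMSO libraries and 14.3, 14.9 and 13.004 CPM in the TNF libraries, and rose by 0.62 on the log2 scale (SE 0.0947, adjusted p = 9.73e-07). OAS3 rose by 0.28 on the log2 scale. The groups of these 4 genes did not overlap. STAT2 (-0.03), ISG15 (-0.04) and USP18 (0.00), which are classical responders to interferon, were not called. Of the other response genes, IFIT3 was called higher and IFIT1 was the member called lower. Both lost the call by DESeq2 (adjusted p = 0.688 for IFIT3 and 0.321 for IFIT1). Of 19 tested genes of MHC class I antigen presentation 5 were called higher and 1 lower, or 2 and 1 by DESeq2. After the GC correction 5 were higher, with HLA-C lost (adjusted p = 0.559) and B2M gained (adjusted p = 0.00139), and CANX was no longer lower. TAPBP, the chaperone tapasin that loads peptides, was at 32.5, 33.9 and 30.0 CPM in the DMSO libraries and 51.7, 49.8 and 52.8 CPM in the TNF libraries, and rose by 0.66 on the log2 scale (SE 0.0544, adjusted p = 1.09e-16). TAP1, the peptide transporter, rose from 20.2 ± 1.399 to 29.7 ± 2.02 CPM, although it overlaps PSMB9 on the other strand. The heavy chain gene HLA-B rose by 0.15 on the log2 scale (SE 0.0359, adjusted p = 0.00439), although reads of HLA genes can be shared, and B2M, the light chain gene (0.08), was not called without that correction. HLA-B lost the call by DESeq2, in the fit of all 12 libraries and without 1 library (adjusted p = 0.0563 without DMSO library 1). Overlaps on the other strand also hold for IRF1 with C5orf56, for TNFRSF10B with RHOBTB2, for TIFA with ALPK1, for ZC3H12C with RDX, for CRIM1 with FEZ2 and for TOB1 with its antisense gene, and reads of such pairs cannot be told apart.

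Of 21 tested TGF-beta and BMP target and feedback genes 2 rose, the ligand BMP2 and the antagonist GREM1, and 6 fell, or 2 and 7 after the GC correction, with a median of -0.11 on the log2 scale and 6 members above 0. BMP2, the ligand, was at 27.4, 26.2 and 24.2 CPM in the DMSO libraries and 54.9, 57.9 and 56.8 CPM in the TNF libraries, and rose by 1.14 on the log2 scale (SE 0.0557, adjusted p = 5.45e-29). ID2, a BMP-responsive inhibitor of helix-loop-helix factors, was at 83.1, 87.2 and 87.9 CPM in the DMSO libraries and 66.6, 66.0 and 65.5 CPM in the TNF libraries, and fell by 0.38 on the log2 scale (SE 0.0405, adjusted p = 7.68e-12). ID4 was at 154, 159 and 153 CPM in the DMSO libraries and 142, 134 and 135 CPM in the TNF libraries, and fell by 0.19 on the log2 scale (SE 0.0329, adjusted p = 1.05e-05). All 3 genes had groups that were fully apart. ID1, SMAD6 and BAMBI, which are further feedback genes, fell by 0.28, 0.29 and 0.21 on the log2 scale, and CTGF by 0.41. Of the 6 falls ID2 and ID4 were called under all alternatives, and by DESeq2 2 members of the list were lower. The adjusted p was 0.128 for ID1 without DMSO library 1, 0.0671 for ID1 without DMSO library 2, 0.117 for ID1, 0.122 for SMAD6, 0.213 for BAMBI, 0.473 for CTGF and 0.0834 for GREM1 without TNF library 2, and 0.0681 for ID1 without TNF library 3.

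In other developmental pathways few members were called, beside 3.26% higher and 2.09% lower over all tested genes. Counts this small are not read as a change of a pathway. Of 16 tested YAP and TEAD targets 4 were called higher and 1 lower (2 higher by DESeq2), with CRIM1, a transmembrane BMP modulator, at 50.3, 50.96 and 50.9 CPM in the DMSO libraries and 67.0, 66.8 and 69.8 CPM in the TNF libraries and FJX1 rising by 0.35, while CYR61 (0.06) and ANKRD1 (0.02) were not called. The member called lower was CTGF, given above. CTGF and the other rises, F3 and NUAK2, lost the call by DESeq2 (adjusted p = 0.188, 0.0584 and 0.314). Of 15 tested Notch genes 2 rose and 1 fell. NRARP, a feedback inhibitor of Notch, was at 37.7, 45.6 and 38.5 CPM in the DMSO libraries and 60.3, 59.4 and 58.8 CPM in the TNF libraries, and rose by 0.56 on the log2 scale (SE 0.0516, adjusted p = 2.87e-14), whereas HEY1, a Notch-induced repressor, fell by 0.26 on the log2 scale (SE 0.0514, adjusted p = 1.73e-04). HES1 was not called (-0.06). Of 20 tested Wnt genes 1 rose and 2 fell, with CXXC4, an inhibitor of Dishevelled, at 6.62, 5.32 and 5.205 CPM in the DMSO libraries and 2.74, 3.46 and 3.93 CPM in the TNF libraries and lower by 0.73 on the log2 scale (SE 0.149, adjusted p = 3.01e-04). AXIN2 (-0.17) and LEF1 (0.04) were not called. Of 26 tested growth factor ligands and receptors 1 rose and 2 fell. FGFR2 rose by 0.33, and KIT, the receptor of stem cell factor, was at 38.8, 37.5 and 37.6 CPM in the DMSO libraries and 22.1, 28.3 and 27.7 CPM in the TNF libraries and fell by 0.48 on the log2 scale (SE 0.0613, adjusted p = 3.83e-09). TNF library 1 was the lowest for KIT, and all 3 were below DMSO. PTCH1, the Hedgehog receptor, and DACT1, a Wnt regulator, chosen after their values were seen, fell by 0.42 and 0.39.

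In the main edgeR fit the hypoxia and glycolysis list had the largest share lower of all 33 lists, 9 of 30 tested members against 2.09% of all genes, and 0 higher (edgeR, 0 higher also at an unadjusted p under 0.05 and by DESeq2, where 3 were lower). Its median was -0.10 on the log2 scale, 4 members were above 0, and 10 were lower after the GC correction. The rank did not hold elsewhere. By DESeq2, 6 of 33 sterol and fatty acid synthesis genes and 3 of 20 ephrin system genes were lower. Under all alternatives 2 of the 30 were lower, against 3 of the 20 ephrin system genes. DDIT4, given above, led the hypoxia and glycolysis list. BNIP3, a mitophagy receptor, was at 50.9, 48.9 and 56.7 CPM in the DMSO libraries and 42.0, 41.9 and 46.9 CPM in the TNF libraries, and fell by 0.28 on the log2 scale (SE 0.0519, adjusted p = 4.97e-05). LDHA, the lactate dehydrogenase, was at 997, 963 and 1008 CPM in the DMSO libraries and 934, 906 and 933 CPM in the TNF libraries, and fell by 0.10 on the log2 scale (SE 0.0210, adjusted p = 4.59e-04). PGK1, a glycolytic kinase, and EGLN3, an oxygen-sensing hydroxylase whose libraries overlapped, fell by 0.10 and 0.29. Of the other members, GAPDH had a log2 fold change of 0.00, ENO1 of 0.01, PKM of 0.00 and the angiogenic ligand VEGFA of -0.01, and none of these was called. DDIT4 and BNIP3 were called under all alternatives. NDRG1, P4HA1, SLC2A1 and ALDOC, also called lower, lost the call by DESeq2 and without TNF library 2. PGK1 and EGLN3 lost it when single libraries were left out, with an adjusted p of 0.0918 for EGLN3 without DMSO library 1, 0.131 for EGLN3 without DMSO library 2, 0.0840 for PGK1 without DMSO library 3, and 0.166 for PGK1 and 0.439 for EGLN3 without TNF library 2.

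Of 33 tested genes of sterol and fatty acid synthesis 8 were called lower and 3 higher, or 6 and 1 by DESeq2. None of the 3 higher was called under all alternatives. After the GC correction FASN was at -0.002 on the log2 scale (adjusted p = 0.977) and SREBF2 at 0.05 (adjusted p = 0.229), and STARD4 lost the call by DESeq2 (adjusted p = 0.159). IDI1, an isoprenoid enzyme, was at 448, 423 and 441 CPM in the DMSO libraries and 377, 378 and 378 CPM in the TNF libraries, and fell by 0.21 on the log2 scale (SE 0.0246, adjusted p = 2.58e-10). INSIG1, the sterol-sensing regulator, and SCD, the stearoyl desaturase, fell by 0.14 and 0.10 on the log2 scale. These falls are small, but the groups did not overlap in the 3 genes. IDI1 and INSIG1 were called under all alternatives, and SCD in all but the fit of all 12 libraries. HMGCS1 (0.04) and FDPS (0.02) were not called, although HMGCS1 was called higher after the GC correction. Of 30 tested genes of the amino acid and ER stress response 3 fell. STC2, a secreted glycoprotein, was at 72.7, 65.2 and 73.6 CPM in the DMSO libraries and 54.6, 55.6 and 54.0 CPM in the TNF libraries, and fell by 0.36 on the log2 scale (SE 0.0448, adjusted p = 2.33e-09). ATF4 (0.02), DDIT3 (-0.20) and ASNS (-0.05) were not called.

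Of 22 tested clock and output genes 2 fell, beside 2.09% of all tested genes. DBP, a clock-output factor, was at 8.69, 9.53 and 8.703 CPM in the DMSO libraries and 5.93, 5.49 and 5.498 CPM in the TNF libraries, and fell by 0.69 on the log2 scale (SE 0.117, adjusted p = 1.05e-05), with no overlap between groups, although it overlaps SPHK2 on the other strand. BHLHE40, a clock repressor, fell by 0.27 on the log2 scale (SE 0.0791, adjusted p = 0.0253), but its libraries overlapped and the call was lost with single libraries left out, with an adjusted p of 0.107 without DMSO library 2, 0.0908 without DMSO library 3, 0.474 without TNF library 2, and 0.0644 without TNF library 3. PER1 (0.16) and NR1D1 (-0.19) were not called. Chosen after their values were seen, 5 further genes were lower: TXNIP, which restrains glucose uptake, at 30.4, 33.8 and 33.2 CPM in the DMSO libraries and 23.5, 25.3 and 25.05 CPM in the TNF libraries, CCNG2, an atypical cyclin, with a log2 fold change of -0.33, SESN3, a sestrin (-0.29), TSC22D3, also named GILZ (-0.28), and PIK3R3, a PI3 kinase subunit (-0.30). All 5 were called under all alternatives. TGFBR3, a TGF-beta coreceptor, IGFBP5 and NRP1, chosen in the same way, fell by 0.33, 0.30 and 0.24.

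Lists on the cell cycle and ribosomes held few calls, all small, beside 3.26% higher and 2.09% lower over all tested genes. Of 28 tested G1/S and replication genes 2 were called higher, MCM2 (0.08) and TYMS (0.09), and of 28 tested mitotic genes 2 lower, HMMR (-0.13) and TOP2A (-0.07). After the GC correction neither mitotic call remained, and DESeq2 called no member of either list, with 6 higher among the replication genes and 6 lower among the mitotic genes at an unadjusted p under 0.05 in edgeR. With single libraries left out the adjusted p was 0.0714 for MCM2, 0.423 for TYMS and 0.163 for TOP2A without DMSO library 1, 0.159 for MCM2, 0.124 for TYMS and 0.127 for TOP2A without DMSO library 3, 0.0572 for MCM2, 0.0751 for TYMS, 0.0676 for HMMR and 0.0908 for TOP2A without TNF library 1, 0.103 for MCM2, 0.268 for TYMS and 0.155 for TOP2A without TNF library 2, and 0.285 for MCM2, 0.106 for TYMS and 0.227 for TOP2A without TNF library 3. Of 36 tested ribosome biogenesis genes 2 were called higher and 2 lower, with NPM1 at 2758, 2613 and 2689 CPM in the DMSO libraries and 2554, 2524 and 2522 CPM in the TNF libraries, where reads can be shared with its pseudogenes. The 2 rises, RRP12 and BOP1, lost the call after the GC correction (adjusted p = 0.0929 and 0.506) and by DESeq2, which called 0 members higher (8 in edgeR at an unadjusted p under 0.05) and 1 lower. Of 28 genes of transcription elongation and the Mediator kinase module 1 was called lower, and not after the correction. Of the kinase module itself, CDK8 and CDK19 are given above. Of 17 tested histone genes 2 were called higher, H2AFX and H1FX, and 1 lower. After the GC correction H2AFX went from 0.12 to 0.06 on the log2 scale (adjusted p = 0.238) and H1FX from 0.13 to 0.06 (adjusted p = 0.325), and DESeq2 called 0 higher (2 in edgeR at an unadjusted p under 0.05). H1F0, a linker histone, was at 218, 202 and 208 CPM in the DMSO libraries and 181, 187 and 186 CPM in the TNF libraries, and fell by 0.17 on the log2 scale (SE 0.0303, adjusted p = 1.78e-05). Of 23 tested heat shock and NRF2 genes, 1 was called higher and 2 lower, none of them under all alternatives.

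By gene type, 444 of the 473 genes called higher and 289 of the 303 called lower were protein coding, among 12379 coding genes tested. Of 225 tested antisense genes 2 were called lower and of 139 tested lincRNAs 2 higher, below the 2.09% and 3.26% over all tested genes. Classes were also formed from symbols after values were seen. Of 420 ZNF genes 5 were called higher and 4 lower, and of 89 LINC transcripts 1 lower, also below the shares over all tested genes. Of 78 ribosomal protein genes 2 were called higher and 8 lower, or 9 lower after the GC correction, and RPS24 was the one called under all alternatives, with a median over the class of -0.01 on the log2 scale. The 7SL RNA genes RN7SL1 and RN7SL2 were called higher, but their libraries overlapped, with RN7SL1 at 14.3, 4.31 and 2.65 CPM in the DMSO libraries and 4.61, 14.8 and 15.9 CPM in the TNF libraries and RN7SL2 at 5.25, 1.505 and 0.683 CPM in the DMSO libraries and 0.768, 8.76 and 9.95 CPM in the TNF libraries. For RN7SL2, TNF library 1 lay among the DMSO libraries, and the largest adjusted p was 0.969 and 0.912 for the 2 genes across the settings tried.

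The depth of TNF library 2 bears on every value above, so the calls are also given by TNF library. The libraries that made the calls also set these directions, which are a description. Relative to the mean of the DMSO libraries, the genes called higher were higher in 471 of 473 in TNF library 1, 473 in library 2 and 471 in library 3, and the genes called lower were lower in all 303 in each. Their median log2 ratios were 0.24, 0.23 and 0.24 for the rises and -0.19, -0.19 and -0.20 for the falls in libraries 1, 2 and 3. With library 2 thinned at random to 11493351 counts, the absolute log2 ratio of a called gene moved by a median of 0.03. In that fit 413 genes were called higher and 238 lower, 384 and 210 of them among the calls at full depth. Leaving the library out altogether gave 325 and 158 calls. The 345 calls lost without it, 170 higher and 175 lower, all kept their sign, with a median absolute log2 fold change of 0.17, against 0.28 for those that remained. GREM1, APLF, SOSTDC1 and CTGF are among the named genes whose call was lost without it, with an adjusted p of 0.0834 for GREM1, 0.105 for APLF, 0.146 for SOSTDC1 and 0.473 for CTGF, and TNFRSF9, ANKRD33B, MSX1, BMF and DDIT4 are among those called with and without it.

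**Figure D5:**
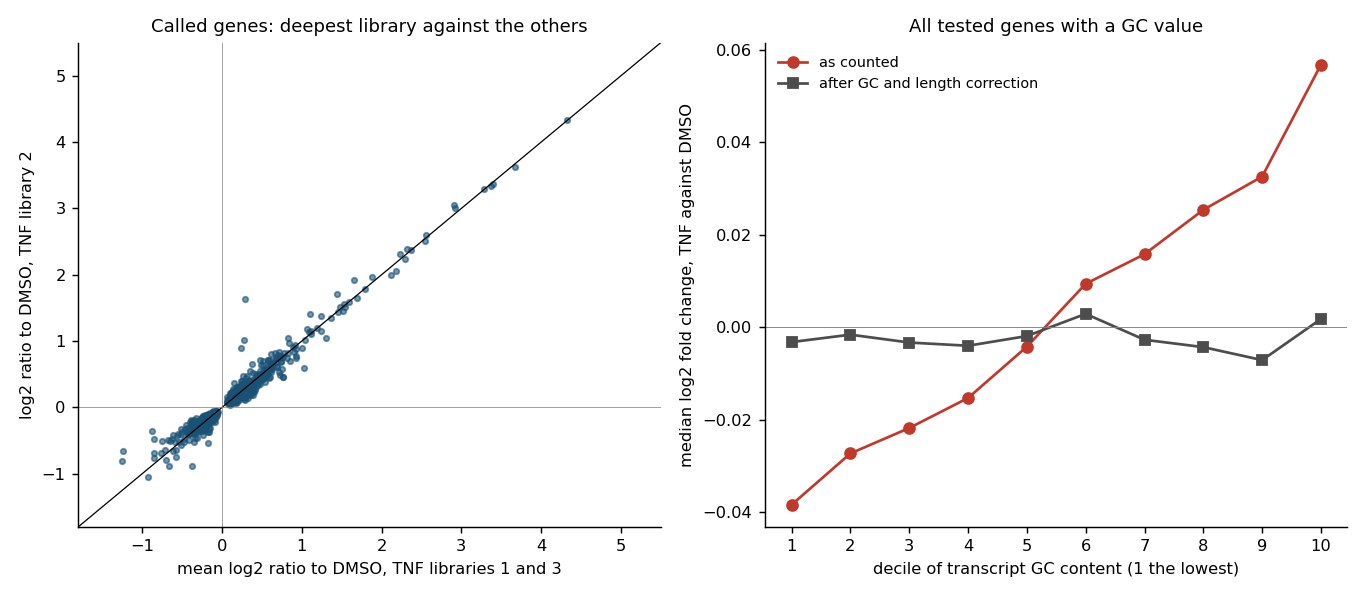
Left, log2 ratio to the DMSO mean in TNF library 2 (y axis) against the mean of TNF libraries 1 and 3 (x axis) for the 776 called genes, computed on CPM plus 0.5, with the line of equality; the points follow the line in both directions, apart from a few low-count genes near 0 on the x axis. Right, median log2 fold change of TNF against DMSO (y axis) by decile of transcript GC content (x axis), as counted (circles) and after the GC and length correction (squares); the circles climb from -0.04 to 0.06 and the squares stay within 0.01 of 0.

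Changes also ran with transcript composition. Across 13277 tested genes with a GC value (91.4%), the log2 fold change rose with GC content (Spearman 0.276, a description across genes of the same 6 libraries), and its median was -0.04 for the decile of lowest GC and 0.06 for that of highest GC. The median GC content was 55.4% over the genes called higher, 43.8% over those called lower and 48.4% over all tested. In the highest decile 104 genes were called higher and 2 lower. With GC content and transcript length modelled, the correlation was -0.002, the highest decile had 39 calls higher and 23 lower, and over all genes there were 405 and 308, of which 346 and 236 were calls before it. The split of calls moved from 61.0% to 56.8% higher. Its part in the small changes was not tested. With the correction MSX1 was at 1.43, TAPBP at 0.63, BMF at -0.80 and DDIT4 at -0.57 on the log2 scale.

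The same treatment was also given to cells with Senexin B, and TNF_SnxB against SnxB shares no library with the comparison above. TNF_SnxB library 1 stood apart from libraries 2 and 3 of its group (the same chi-square ratio was 5.402 and 5.14, against 1.199 between libraries 2 and 3). Of the genes called higher under all alternatives, 169 of 176 with a value were also higher there (96.0%), and of those called lower 53 of 61 were lower (86.9%), while 49.7% of all genes were higher there and 50.3% lower. Leaving out each TNF_SnxB library in turn gave 165 to 171 and 49 to 55. The genes called under all alternatives were chosen in part on the fits of 12 and of 9 libraries, which hold some or all of these libraries. Their shares are therefore not independent of that choice. Over all 776 calls, chosen on none of these libraries, the numbers were 299 of 466 (64.2%) and 183 of 299 (61.2%). Among the lesser-known genes the log2 fold changes with Senexin B, with the value without TNF_SnxB library 1 in brackets, were 2.79 (2.86) for TNFRSF9, 1.79 (1.76) for ANKRD33B, 1.36 (1.24) for MSX1 and 1.15 (1.14) for BMP2. For genes that fell they were -0.63 (-0.76) for BMF, -0.21 (-0.16) for ID2, -0.49 (-0.51) for KIT, -0.47 (-0.58) for DDIT4 and -0.44 (-0.42) for RGS2. All 9 had the direction seen without the inhibitor, a chosen set that does not stand for all calls. Some other genes that fell without the inhibitor had the opposite sign with it. BNIP3 was at 0.14 (0.16), LDHA at 0.09 (0.10), IDI1 at 0.05 (0.12) and INSIG1 at 0.006 (0.04). HOXA13 was near 0, at -0.02 (0.03). In 1 edgeR fit of all 12 libraries the size of the TNFα effect differed with the inhibitor for 17 of the 150 named genes tested, beside 2.50% of all 14822 genes, and nothing is read from the 2 shares, since the named genes were chosen on libraries of this fit. That fit held no term for GC content.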

How the data were processed

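Bulk RNA was sequenced from HEK293 cells in 12 libraries, and the 3 DMSO and 3 TNF libraries were compared. Per the labels' protocols, a column kit gave total RNA and a TruSeq kit the libraries. The table the authors deposited holds raw counts, whole numbers with no normalization, by gene symbol. The submitters' processing notes name STAR 2.4 for hg38, featureCounts (Subread 1.4.6) and SAMtools 1.2. Which annotation and strand setting were used is not given in the sources used here, so overlapping genes cannot be separated. A gene without a count in any of the 6 libraries was found for 26866 of 56634 symbols.

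Genes were filtered with filterByExpr of edgeR (14526 left, the rest holding at most 0.203% of a library), scaled by TMM and tested with the edgeR quasi-likelihood F test, group as the only term, two-sided, with Benjamini-Hochberg adjustment over all tested genes. The members, the 33 gene lists and the 4 marker lists were chosen with earlier results of these data known. Named genes were the 20 steepest rises and the 20 steepest falls that were called, reached a mean of 1 CPM in the higher group and showed no overlap of libraries, the same outside the 4 well-known lists, and in every list up to 5 called members, taken by adjusted p, 151 in all; genes chosen after their values were seen are marked so. Alternatives were all 12 libraries, the 9 libraries without TNF_SnxB, median-of-ratios size factors, DESeq2, no filter, a replicate block, a fold of at least 1.5, TNF library 2 thinned, each library left out, and a GC and length correction (loess offsets, span 0.5; GENCODE release 29). The block with the correction was added after the data were seen. "Under all alternatives" leaves out the fold test. Some genes and 1 list are not reported here. On simulated data from 14399 genes, 86% of genes changed 1.5-fold and 96% of those changed 2-fold were called, with 12 false calls. The simulation gave every gene the same dispersion and placed changes only in genes above a minimum expected count. Smaller changes were not simulated, so the shares do not cover calls of less than 1.5-fold. The fits used DESeq2 1.42.0, edgeR 4.0.16 and limma 3.58.1 in R 4.3.3, and figures matplotlib 3.10.9 in Python 3.11.15.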

Additional observations from a re-analysis of the deposited data

Results flagged for a closer look

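The TNFα effect differed between cells with and without Senexin B for 17 of the 150 named genes tested (interaction term of 1 edgeR fit of all 12 libraries, adjusted p under 0.05), and for 370 of all 14822 genes tested. The values are the log2 effect of TNFα with minus without the inhibitor. Among the NF-kB targets they were negative for NFKBIA (-0.82), IER3 (-0.66) and SDC4 (-0.61) and positive for TIFA (0.65). For the AP-1 and other regulators they were negative for JUN (-0.38), JUND (-0.44), CITED2 (-0.40) and HES4 (-0.56) and positive for KLF9 (0.39). For the BH3-only gene PMAIP1 the value was 0.35, and for the metabolic genes BNIP3 (0.42), LDHA (0.19) and IDI1 (0.26) it was positive. The mitotic gene HMMR was at 0.32, the histone genes H2AFX (-0.39) and H1FX (-0.40) were negative, and the low-count gene C15orf65 was at 1.4002. The TNF_SnxB libraries were known from earlier results to differ among themselves with GC content, and the fit held no term for it. In TNF against DMSO, the calls of HMMR, H2AFX and H1FX were lost after the GC correction. The part of GC content in these values was not tested. TNF_SnxB library 1 stood apart from libraries 2 and 3, and without it the difference was called for 4534 of 15113 genes. All 17 then kept their sign and an adjusted p under 0.05, with NFKBIA at -0.87, TIFA at 0.68 and HES4 at -0.75, an alternative chosen after seeing the data.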

How the results depend on the processing

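Of the 151 named genes, no direction was reversed under any alternative, and 94 were called under all but the fold test. The 473 rises and 303 falls became 212 and 88 in the fit of all 12 libraries, 222 and 93 by DESeq2, and 41 and 0 against a fold of at least 1.5 (edgeR, with 73 and 12 at an unadjusted p under 0.05). Without the low-count filter 197 were lower. Leaving out 1 library at a time gave 325 to 506 rises and 158 to 358 falls, fewest without TNF library 2 (325 and 158); falls numbered 183 without TNF library 3 and 195 without DMSO library 1. The same-direction count in the Senexin B pair, 482, was 449 to 514 without single TNF_SnxB libraries. The share higher among all calls, 61.0%, was 70.7% with all 12 libraries, 70.5% by DESeq2 and 71.4% without the filter. Same-numbered DMSO and TNF libraries did not deviate together (Pearson 0.0328, -0.0327 and 0.0048), so the numbers were not taken as pairs; a replicate block gave 399 and 243 calls. The cause of these differences was not tested. At low levels only large rises were called, with no called rise under 1.41 on the log2 scale below a mean of 1 CPM.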
